A study of Rattus norvegicus with 12 samples.

Results

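The regions described here are stretches of open chromatin that were listed after ethanol and not after saline in the amygdala of the rat. Peaks of 12 ATAC-seq libraries were merged wherever they shared at least 1 bp, and a merged region was kept if it held a peak in 3 or more of the 6 Ethanol libraries and in none of the 6 Control libraries. Of 118874 merged regions, 1367 met this rule and are called Ethanol-only regions. Together they spanned 1.91 Mb, which was 0.885% of the length of all merged regions. The regions were chosen by the presence or absence of listed peaks in the Ethanol and Control libraries. That rule itself compares the treatments, so the counts that follow describe how the lists differ and no test was made on them.

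All 12 animals were adult male wild-type Sprague Dawley rats. The Control animals received saline and the Ethanol animals 1 g/kg ethanol, both by intraperitoneal injection, and the amygdala was collected 1 h later and frozen. For every library a peak list was at hand that gives the position and the score of each peak. It holds no read counts, and the depth is therefore unknown. By the methods of the study the tissue took in the central, medial and basolateral nuclei. The labels name neither litter nor sequencing batch, and with no expression values the tissue could not be checked against marker genes.

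In ATAC-seq the transposase Tn5 inserts adapters where DNA is not wrapped tightly around nucleosomes, and a peak caller marks the stretches where insertions pile up. Promoters of active genes tend to give strong peaks in every sample. Enhancers and other distal elements more often lie near the limit of detection, where a peak is listed in some samples and missed in others. The amygdala is a brain area that processes fear and anxiety and holds many neuronal and glial types, so a peak from bulk tissue is an average over them, and fewer cells of a type cannot be told apart from less open chromatin in each cell. A peak missing from a list means that the caller did not report one, not that the chromatin was closed.

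Ethanol-only regions lay at the promoters of Slc10a6, which encodes a membrane transporter of sulphated steroids, and Pygm, which encodes muscle glycogen phosphorylase and in the brain is found in astrocytes. Their promoters are printed because they are the gene starts among the named regions for which a sequence was at hand. The study places the Slc10a6 region over the start of its gene. It places the Pygm region farther from the gene start than the printed bases reach. The letters printed for Pygm are therefore not those of its Ethanol-only region. Each is the RefSeq promoter from 250 bases before to 50 bases after the start, on the plus strand of GRCr8, at chr14:6385325-6385624 for Slc10a6 and at chr1:213119555-213119854 for Pygm. GRCr8 is another build than that of the peak lists, Rnor_6.0, so these coordinates cannot be set against the positions of the regions. Capitals mark a match to AGAACA or, on the other strand, TGTTCT, the hexamer that each subunit of the glucocorticoid receptor binds, a transcription factor that answers to stress hormones.
Slc10a6: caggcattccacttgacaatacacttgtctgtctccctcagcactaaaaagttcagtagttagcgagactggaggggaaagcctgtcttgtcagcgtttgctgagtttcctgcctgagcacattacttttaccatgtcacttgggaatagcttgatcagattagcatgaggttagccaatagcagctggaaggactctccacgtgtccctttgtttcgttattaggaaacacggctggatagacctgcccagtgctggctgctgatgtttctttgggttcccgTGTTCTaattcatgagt
Pygm: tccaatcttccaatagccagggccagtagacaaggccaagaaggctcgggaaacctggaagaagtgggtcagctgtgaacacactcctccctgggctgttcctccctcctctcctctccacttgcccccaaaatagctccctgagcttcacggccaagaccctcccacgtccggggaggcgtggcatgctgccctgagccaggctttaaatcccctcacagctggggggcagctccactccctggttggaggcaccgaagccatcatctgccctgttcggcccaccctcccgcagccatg

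Slc10a6 held 1 match and Pygm 0. Of 33469 RefSeq rat promoters of this length, 20.7% held the hexamer on one strand or the other, and 0.0149% held the full palindrome of the receptor, which joins the hexamer to its reverse complement and so contains it. A match describes the letters only.

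Most Ethanol-only regions sat at the lower edge of the rule. A peak was listed in exactly 3 Ethanol libraries in 1034 of the 1367 regions, in 4 libraries in 260, in 5 libraries in 62 and in all 6 in 11. Just outside the rule were 3979 regions with a peak in 2 Ethanol and 0 Control libraries, and 1829 with 3 Ethanol and 1 Control library. In the background of all 62879 regions listed in 3 or more of the 12 libraries, 2.17% were Ethanol-only. The reverse rule, with 3 or more Control and 0 Ethanol libraries, gave 595 Control-only regions, or 0.946% of the same background.

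Ethanol-only regions thus outnumbered Control-only regions 2.30 to 1. The same lean ran through every pair of mirrored classes in the lists, including those that the rule does not use. Regions in 1 Ethanol library alone numbered 22962 and in 1 Control library alone 18688, a ratio of 1.23. The ratio was 1.63 for 2 against 0 libraries, 2.24 for 3 against 0, 2.32 for 4 against 0 and 3.44 for 5 against 0. With 1 library of the other treatment allowed it was 1.70 for 3 libraries, 2.02 for 4, 2.69 for 5 and 3.15 for 6. At 6 against 5 libraries the ratio was 1.06.

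**Figure D1:**
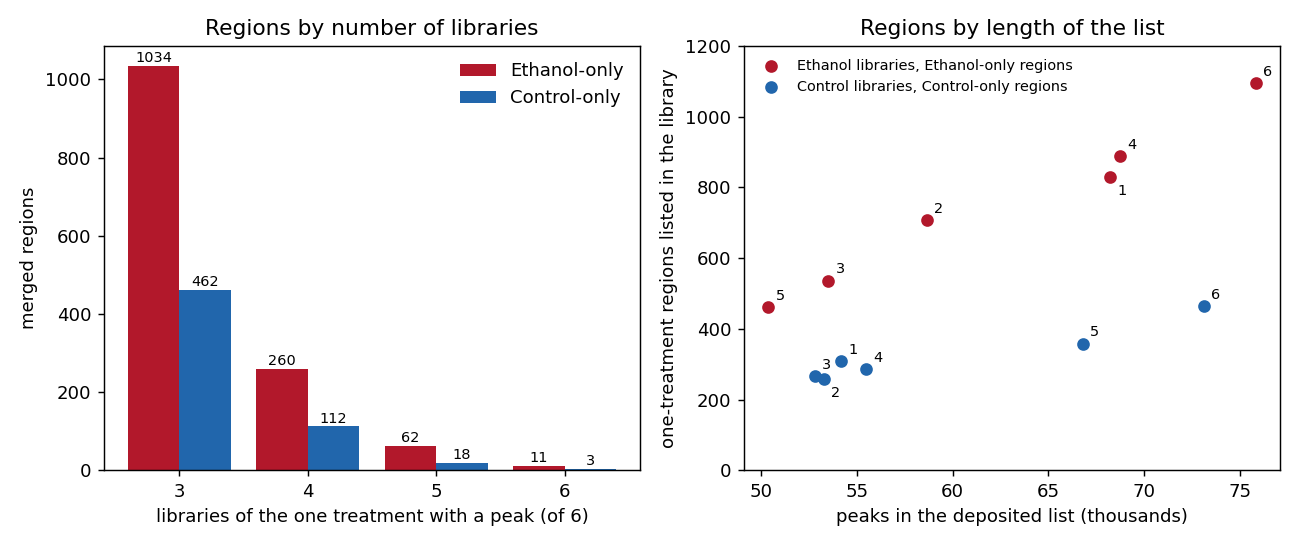
Left, number of merged regions (y axis) by how many of the 6 libraries of the one treatment had a peak (x axis), for Ethanol-only (red) and Control-only (blue) regions. Right, each point is a library with its replicate number, plotted by the length of its deposited list (x axis) and by how many Ethanol-only (red) or Control-only (blue) regions it lists (y axis). Ethanol 6 has 75847 peaks and 1094 regions, Ethanol 5 has 50370 peaks and 462 regions.

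How many of these regions a library held followed the length of its list. Ethanol 6, the longest list with 75847 peaks, had a peak in 1094 of the 1367 regions, or 80.0%. Ethanol 5, the shortest with 50370 peaks, had a peak in 462, or 33.8%. In between, Ethanol 4 held 889, Ethanol 1 held 829, Ethanol 2 held 708 and Ethanol 3 held 536, which is also the order of their list lengths. As a share of its own list, the peaks in these regions made up from 0.931% in Ethanol 5 to 1.47% in Ethanol 6.

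The 1034 regions in exactly 3 Ethanol libraries were spread unevenly over the 20 possible sets of 3. The set of Ethanol 1, Ethanol 4 and Ethanol 6, the 3 longest lists of the group, held 199 regions. The set of Ethanol 3, Ethanol 4 and Ethanol 5 held the fewest, 11. Sets with Ethanol 6 accounted for 794 regions and sets without it for 240. On the Control side, 2762 regions had 3 or more Ethanol libraries and 1 Control library. Control 6, the longest Control list, was that library in 906 and Control 5, the next longest, in 643. The shorter Control lists did not follow length. Control 3, the shortest, was that library in 355, Control 1 in 326, Control 2 in 274 and Control 4 in 258.

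Leaving out Ethanol 6 brought the count to 592 Ethanol-only against 1183 Control-only regions, and leaving out Control 6 brought it to 2315 against 246. Such fits set 5 libraries against 6 under the same minimum of 3, which lowers the count on the smaller side and raises it on the other. Without both Ethanol 6 and Control 6, the groups of 5 gave 1060 Ethanol-only and 526 Control-only regions, a ratio of 2.02, which is 1.88% and 0.934% of the regions listed in 3 or more libraries. Without the shortest list of each group, Ethanol 5 and Control 3, there were 1381 and 505 regions, a ratio of 2.73. The Ethanol count was the larger in both.

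Cutting all lists to one length narrowed the gap between the treatments. When each library was cut to its 50370 top scoring peaks, the length of the shortest list, and the lists were merged again, 905 regions were Ethanol-only and 694 Control-only. These were 1.72% and 1.32% of the regions then listed in 3 or more libraries, and the ratio was 1.30. At 40000 peaks there were 659 Ethanol-only regions (1.53%) and 596 Control-only regions (1.39%). At 30000 peaks there were 498 (1.51%) and 378 (1.14%), at 20000 peaks 242 (1.09%) and 228 (1.03%), and at 10000 peaks 92 (0.825%) and 72 (0.646%). The ratio lay between 1.06 and 1.32 at these lengths, above 1 at each and well below the 2.30 of the full lists. Each list holds many peaks of one score, and with the wider peak kept first among equal scores the ratio lay between 1.19 and 1.28.

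**Figure D2:**
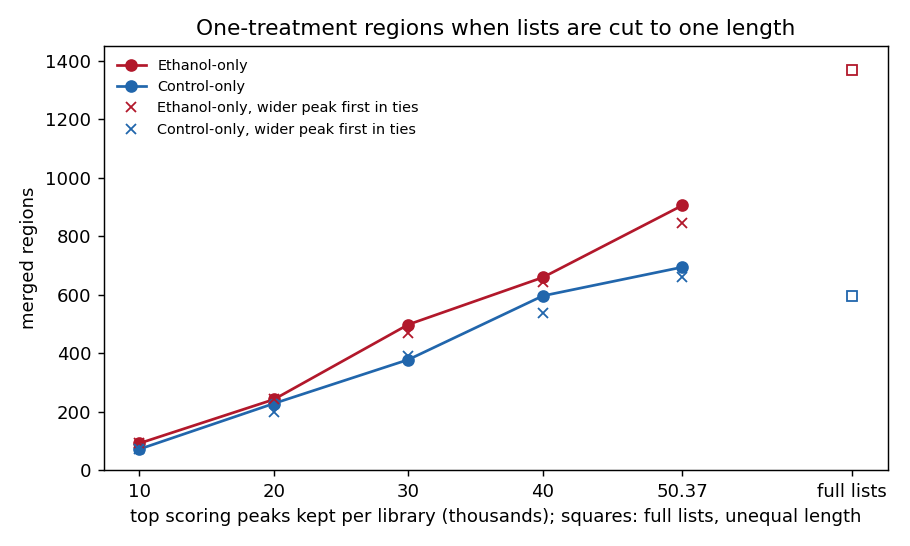
Number of Ethanol-only (red) and Control-only (blue) regions (y axis) after each library is cut to the same number of top scoring peaks (x axis). Circles break ties in score at random, crosses keep the wider peak first, and open squares are the full lists of unequal length. At 50370 peaks the counts are 905 and 694, and in the full lists 1367 and 595.

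Most of the original regions no longer met the rule after this cut. Of the 4606 peaks in the 1367 regions, 60.0% were among the top 50370 of their list. The loss fell on the long lists, which gave up 58.5% of these peaks in Ethanol 6, 52.2% in Ethanol 1 and 51.0% in Ethanol 4, against 11.6% in Ethanol 3 and none in Ethanol 5. Peaks in 3 or more Ethanol libraries were left in 412 regions, or 30.1%, while 504 kept 2 libraries, 379 kept 1 and 72 kept none.

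More than 50% of the regions that met the rule after the cut were other places. Of the 905, 409 overlapped an Ethanol-only region of the full lists, or 45.2% of the 905 and 29.9% of the 1367. The other 496 lay in merged regions of the full lists that also held a Control peak, as the rule requires of any that were not Ethanol-only there. Whether the cut dropped that peak or only parted it from the region was not counted. At 20000 and at 10000 peaks, none of the Ethanol-only regions overlapped one from the full lists.

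In the higher scoring 50% of each list, where the lists keep their unequal lengths, 652 regions were Ethanol-only and 258 Control-only, or 1.91% and 0.756% of the regions listed in 3 or more libraries there.

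The peaks in Ethanol-only regions ranked low in their lists. The rank of a peak is given as a percentile of the score within its own library, with 100 the highest, and the score was used for nothing else. The median percentile of the 4606 peaks was 26.7, and 38.0% of them had the lowest score of their list. In the upper 50% by score lay 11.2%, and none lay in the upper 10%. In 964 regions, or 70.5%, every listed peak was in the lower 50%. In 6 regions every listed peak was in the upper 50%.

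Low rank was shared with other regions listed in as few libraries. Among regions with a peak in exactly 3 of 12 libraries, 1034 were Ethanol-only and 7137 had peaks in both treatments. Within the Ethanol libraries, the share of peaks at the lowest score was between 31.6% and 47.4% in the former and between 32.0% and 53.8% in the latter. It was lower in the Ethanol-only regions in 4 of 6 libraries, and higher in Ethanol 1 and Ethanol 4. The share in the upper 50% by score was 5.63% to 12.4% in Ethanol-only regions and 5.13% to 10.7% in regions of both treatments, and was higher in the Ethanol-only regions in 6 of 6 libraries. The widest gap was in Ethanol 4, with 11.4% against 8.91%. This direction did not hold beyond regions listed in exactly 3 libraries. Over regions listed in 3 to 6 libraries, the share was lower in the Ethanol-only regions in 6 of 6 libraries. It was 6.4% to 14.7% there, against 7.59% to 17.5% in regions of both treatments. These wider sets differ in make-up, since regions in exactly 3 libraries were 1034 of 1367 Ethanol-only regions and 7137 of 21764 of both treatments.

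Peak widths in regions listed in exactly 3 libraries differed little. The median width of the Ethanol peaks in regions listed in 3 libraries ranged from 628 bp in Ethanol 4 to 923 bp in Ethanol 6 for Ethanol-only regions, and from 622 bp to 889 bp in the same libraries for regions of both treatments. It was greater for Ethanol-only regions in 5 of 6 libraries, the exception being Ethanol 1 with 754 bp against 780 bp. The spread between libraries was larger than the difference within any of them.

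**Figure D3:**
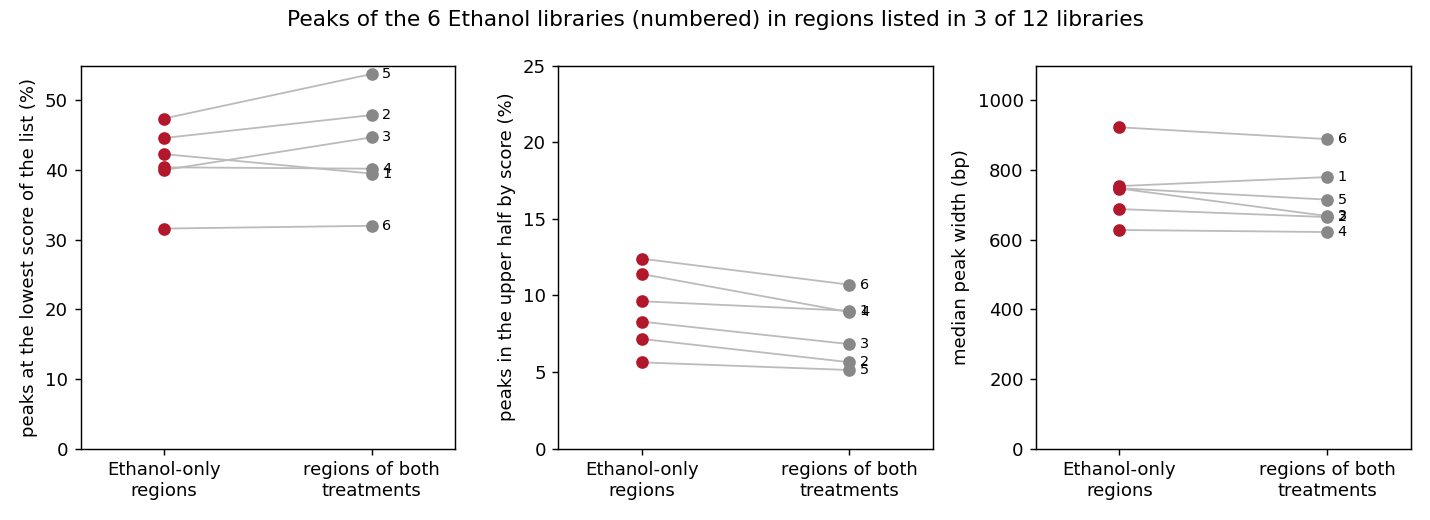
Each line joins the values of one Ethanol library (numbered) for its peaks in Ethanol-only regions (red) and in regions with peaks of both treatments (grey), all in exactly 3 of 12 libraries. Panels show the share of peaks at the lowest score of the list, the share in the upper 50% by score, and the median peak width in bp. The middle panel falls from left to right in all 6 libraries, most in Ethanol 4, from 11.4% to 8.91%. Over regions listed in 3 to 6 libraries, not drawn, this share was lower in Ethanol-only regions in all 6 libraries.

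As merged regions, the Ethanol-only set had a median width of 1235 bp, with quartiles of 922 and 1673 bp and the extremes at 379 and 5961 bp. The median was 1188 bp in 3 libraries, 1440 bp in 4, 1446 bp in 5 and 1643 bp in 6, and that of the single peaks in them was 753, 812, 871 and 976 bp. Regions of both treatments had medians of 1125, 1273, 1408 and 1541 bp in the same classes, and Control-only regions 966, 1224, 1190 and 914 bp. The peaks mostly lay on top of each other: in 1243 of 1367 regions, or 90.9%, at least 1 base was shared by all listed libraries. In 74 regions no base was shared by 3 libraries, so that these met the rule only through a chain of partly overlapping peaks.

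Regions listed in all 12 libraries, of which there were 21640, served as the constant part. The distance from an Ethanol-only region to the nearest of them had a median of 21.4 kb, with quartiles of 6.74 and 67.3 kb. For regions of both treatments listed in 3 to 6 libraries the median was 23.2 kb, and for Control-only regions 24.5 kb. A constant region lay within 1 kb of 7.61% of the Ethanol-only regions and within 10 kb of 31.5%, and was more than 100 kb away from 17.8%. For the regions of both treatments these shares were 8.31%, 32.3% and 18.9%.

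**Figure D4:**
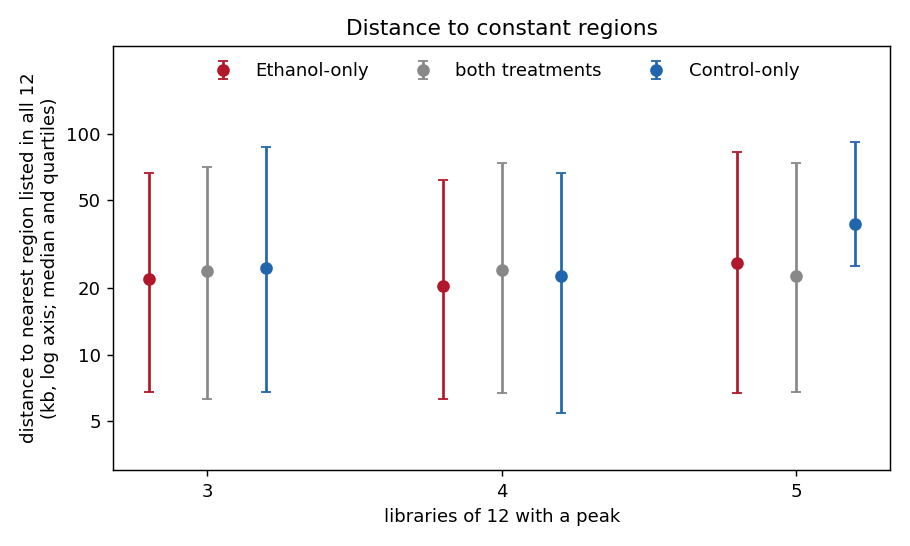
Distance in kb (y axis, log axis) to the nearest region listed in all 12 libraries, by how many of 12 libraries had a peak (x axis), for Ethanol-only (red), both-treatment (grey) and Control-only (blue) regions. Points are medians and bars reach from the lower to the upper quartile. The Ethanol-only medians of 22.1, 20.4 and 26.1 kb lie between the quartiles of the other classes.

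Control peaks were often close by. The nearest Control peak was at a median distance of 3.59 kb from an Ethanol-only region. It was within 1 kb of 328 regions, or 24.0%, and within 10 kb of 990, or 72.4%. At 78 regions no Control peak lay within 50 kb, and the most remote was 1329 kb from one. For Control-only regions and the nearest Ethanol peak the median was 3.01 kb.

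The surroundings of the regions leaned in the same direction, less strongly. Within 10 kb on either side, outside the Ethanol-only regions themselves, peaks covered 1.57 to 2.65 Mb in the Control libraries and 1.75 to 3.29 Mb in the Ethanol libraries. Divided by the covered length of each list, this came to 21.5 ± 0.967 kb per Mb in Control and 23.0 ± 1.02 kb per Mb in Ethanol (SD, n = 6 each). The lowest, median and highest values were 20.7, 21.0 and 22.8 in Control and 21.5, 22.9 and 24.5 in Ethanol, so the groups overlapped. The values come from the contrast that chose the regions and carry no test.

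Along the chromosomes the Ethanol-only share of the regions listed in 3 or more libraries was even. It lay between 1.60% and 2.94% on 19 of the 20 autosomes. On chromosome 15 it was 3.39%, with 93 regions, and on chromosome 6 it was 2.94%, with 96. The X chromosome had the lowest share of those with any, 0.565%, with 5 Ethanol-only against 10 Control-only regions out of 885. Chromosome Y had none of either kind among 13 regions. Control-only shares ran from 0.568% on chromosome 19 to 1.33% on chromosome 8.

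**Figure D5:**
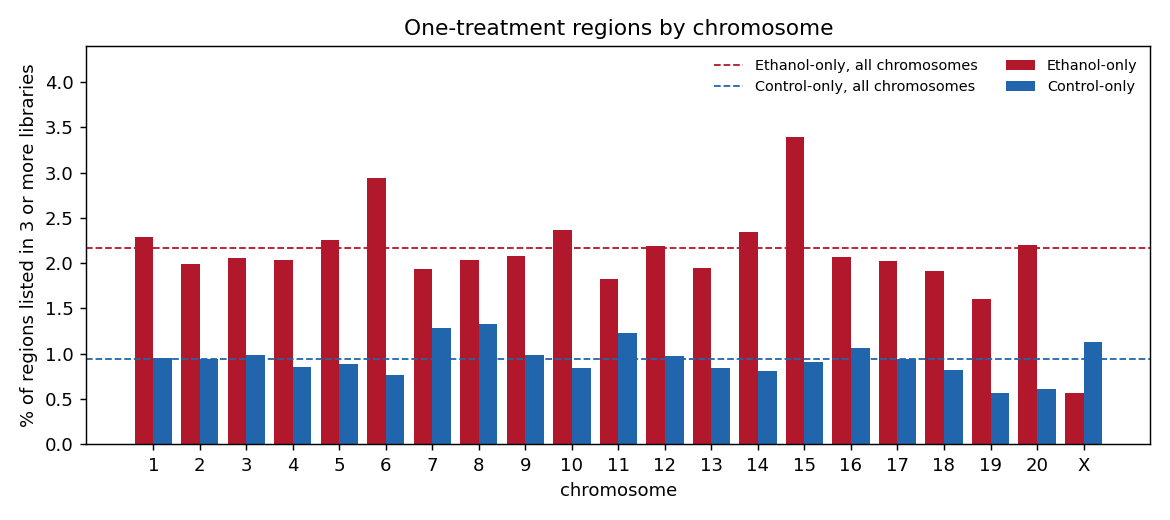
Share of the regions listed in 3 or more libraries (y axis, %) that were Ethanol-only (red) or Control-only (blue) on each chromosome (x axis). Dashed lines are the shares over all chromosomes, 2.17% and 0.946%. Chromosome 15 stands highest at 3.39% for Ethanol-only regions, and X is the one chromosome drawn where the Control-only share is the larger.

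Of 2704 windows of 1 Mb with any region listed in 3 or more libraries, 908 held an Ethanol-only region, 607 of them only 1, so that 44.4% of the Ethanol-only regions were alone in their window. Another 218 windows held 2, 83 held 3 or more and 15 held 5 or more. No window held more than 3 Control-only regions. The median distance from an Ethanol-only region to the next one was 404 kb, and 57 of them, or 4.17%, had another within 10 kb. A class of like size, the 1508 regions with 3 or more Control and 1 Ethanol library, had a median of 500 kb and 2.59%. Without 29 to 33 Mb of chromosome 15, the Ethanol-only values were 430 kb and 3.25%, and those of this class were unchanged. The larger class of 2762 regions with 3 or more Ethanol and 1 Control library had 207 kb and 7.86%.

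Of the 4 windows with the most Ethanol-only regions, 3 were on chromosome 15 and 1 on chromosome 1. Between 31 and 32 Mb, 22 of 74 regions were Ethanol-only, or 29.7%. Between 29 and 30 Mb it was 12 of 42, or 28.6%, and between 30 and 31 Mb 7 of 40, or 17.5%. The annotation of the study names Trav14s1 and Tcrva8, V segment genes of the T cell receptor, as neighbours of positions there. From 29 to 33 Mb the Ethanol-only regions numbered 43 of 187, with 0 Control-only regions, and made up 3.15% of all Ethanol-only regions.

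Here the libraries did not follow the length of their lists. Ethanol 3, one of the shorter lists, held 39 of the 43, Ethanol 6 held 38, Ethanol 4 held 26, Ethanol 5 held 24, Ethanol 2 held 20 and Ethanol 1, the third longest list, held 9. Outside this stretch chromosome 15 had 50 Ethanol-only regions of 2556, or 1.96%, below the 2.11% of the whole genome without the stretch.

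Inside the stretch, a region from 31427592 to 31432195 had the greatest mean covered length of all Ethanol-only regions. Its peaks covered 2954 bp in Ethanol 2, 4604 bp in Ethanol 3, 2826 bp in Ethanol 4, 2519 bp in Ethanol 5 and 4255 bp in Ethanol 6, with no peak in Ethanol 1. A region from 31685829 to 31687526, at the start of LOC108353020 in the study's annotation, had no peak in Ethanol 1 either and between 1168 and 1685 bp in the other 5. The region listed in most libraries was, between 29 and 30 Mb, the one from 29467248 to 29468302, with 689 to 907 bp in 5 libraries. Between 30 and 31 Mb it was the one from 30785043 to 30786144, with 734 to 1100 bp in 4. All 4 remained Ethanol-only when each list was cut to its top 50370 peaks. Between 31 and 32 Mb the most often listed region was the one from 31663501 to 31664690, with a peak in all 6 libraries.

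The window on chromosome 1, between 178 and 179 Mb, had 7 of 36 regions, or 19.4%, as many as the window from 30 to 31 Mb of chromosome 15 and a higher share. Its most often listed region, from 178130189 to 178132690, had peaks of 900 bp in Ethanol 1, 400 bp in Ethanol 2, 382 bp in Ethanol 4 and 1936 bp in Ethanol 6. At most 2 of these shared a base, and none was among the top 50370 of its list.

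The 11 regions with a peak in 6 of 6 Ethanol libraries were 878 to 4051 bp wide, and in 9 of them all 6 libraries shared a base. After the cut to 50370 peaks, 10 of the 11 were still Ethanol-only. In the upper 50% of each list 3 of them were. The mean percentile of their peaks ran from 12.5 to 57.0, so even these included regions of low score throughout.

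The region with the highest mean percentile among the 11 lay on chromosome 3 from 79314824 to 79317279, within the body of Ptprj in the study's annotation, a receptor-type tyrosine phosphatase. Its peaks covered 1166 bp in Ethanol 1, 1882 bp in Ethanol 2, 1160 bp in Ethanol 3, 1065 bp in Ethanol 4, 1084 bp in Ethanol 5 and 2439 bp in Ethanol 6. Percentiles ranged from 26.8 to 80.0 with a median of 61.6. It kept all 6 libraries at the equal cut and 4 in the upper 50%, and the nearest Control peak was 3.41 kb away.

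A region on chromosome 18 from 15538400 to 15539473 lay within the body of Ttr, which encodes transthyretin, the thyroid hormone carrier made in the choroid plexus. The study's annotation also places it inside a long model of Mapre2, a microtubule end-binding protein. Its peaks were of even width, from 624 to 926 bp with a median of 720 bp, and their percentiles ran from 9.65 to 75.9. It remained Ethanol-only at the equal cut with 5 libraries and in the upper 50% with 4. The nearest region listed in all 12 libraries was 66.6 kb away and the nearest Control peak 6.71 kb.

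On chromosome 1, from 44434354 to 44438404, the widest of the 11 lay within the body of Tfb1m, a methyltransferase of mitochondrial ribosomal RNA. Peaks covered between 697 bp in Ethanol 2 and 3681 bp in Ethanol 6, with a median of 1532 bp, and at most 5 libraries shared a base. Its percentiles ranged from 9.92 to 70.7, and 1 library had a peak in the upper 50%.

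Of the remaining 8, the annotation at hand covered the pair on chromosome 15, with no gene at either, and not the other 6. On chromosome 3 the region from 142433851 to 142435633 had peaks of 640 to 1352 bp with a median percentile of 47.0, and was the third that stayed Ethanol-only in the upper 50%. The one from 172016808 to 172018450 on the same chromosome had peaks of 372 to 1639 bp. On chromosome 17 the region from 25200352 to 25201763 stood alone, 537 kb from the nearest constant region and 189 kb from the nearest Control peak, with peaks of 638 to 1293 bp. On chromosome 12 the region from 49048636 to 49049799 had peaks of 545 to 1015 bp and a Control peak 1.24 kb away.

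On chromosome 5 the region from 165969298 to 165973152 ranged from 523 bp in Ethanol 4 to 3297 bp in Ethanol 6, and at most 4 libraries shared a base. On chromosome 11 the region from 69683174 to 69686630 was covered most on average, by 1778 ± 806 bp (SD, n = 6), with peaks from 930 to 3153 bp. Its percentiles ran from 8.37 to 26.9, with the lowest mean of the 11, 12.5, and it was the 1 of the 11 that dropped out at the equal cut, where 1 library still listed it. The last pair lay in the chromosome 15 stretch, from 31639190 to 31640067 and from 31663501 to 31664690, with peaks of 331 to 878 bp and of 480 to 976 bp.

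Among all 1367, the second region by mean covered length, with 2146 bp, was on chromosome 7 from 109147681 to 109152969, in the body of Zfat, which encodes a zinc finger and AT-hook protein. Peaks covered 4558 bp in Ethanol 2, 1532 bp in Ethanol 3, 2071 bp in Ethanol 5 and 4718 bp in Ethanol 6, and Ethanol 1 and Ethanol 4 had none. Broad as they were, their percentiles stayed between 23.0 and 27.6.

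The 3 regions with the highest mean percentile began with a region on chromosome 18 from 55760795 to 55762860, in the body of Smim3, a small membrane protein gene, with a mean percentile of 67.2 and peaks of 858 to 1956 bp in 5 libraries. Next were chromosome 8 from 66462684 to 66463911 with a mean of 64.5 in 3 libraries, and chromosome 2 from 9600969 to 9602510 with 63.1 in 4 libraries. All 3 stayed Ethanol-only both at the equal cut and in the upper 50%.

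Of the promoter loci that the study lists, Slc10a6, Pygm and LOC108353020 coincided with Ethanol-only regions. The study chose these loci on the same libraries, so their presence here is not independent evidence. At Slc10a6, on chromosome 14 from 7617156 to 7618444, peaks covered 590 bp in Ethanol 1, 945 bp in Ethanol 4 and 1200 bp in Ethanol 6, the 3 longest Ethanol lists. Ethanol 2, Ethanol 3 and Ethanol 5 had none. The percentiles ran from 8.37 to 47.4, only 1 of the 3 libraries kept its peak at the equal cut, and the region was then no longer Ethanol-only.

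The region at the promoter of Pygm, on chromosome 1 from 221753876 to 221755151, had peaks of 1154 bp in Ethanol 2, 522 bp in Ethanol 3, 514 bp in Ethanol 4 and 1276 bp in Ethanol 6. Percentiles were 10.2 to 65.9. It was 77 bp from a region listed in all 12 libraries, and stayed Ethanol-only at the equal cut with 3 libraries.

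The study's annotation was at hand for 150 of the 1367 regions, those that it ranked first by its own test on these libraries, so the genes in it are no sample of all of them. Of the 150, 65 lay in a gene body and 5 at a promoter, and exons and introns were not told apart. No such share over all regions was at hand to set beside these counts. The annotation also holds models of implausible length, with 3 regions far apart on chromosome 1 in Mcc and 3 on chromosome 19 in LOC367515, and 61 of the 65 lay in the body of another gene. The genes of this and the next paragraphs were picked after their values were seen. Besides the loci above, the promoter regions were those of Lrrc14b, a leucine-rich repeat gene, and Pla2g3, a secreted phospholipase. At Lrrc14b, on chromosome 1 from 31530852 to 31532369, 4 libraries had peaks of 751, 1419, 787 and 1020 bp. At Pla2g3, on chromosome 14 from 83723856 to 83725815, 4 libraries had peaks of 961, 874, 870 and 1704 bp. A Control peak lay 101 bp away. Percentiles ran from 8.37 to 39.9 at Lrrc14b and from 9.65 to 38.8 at Pla2g3.

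The body of Zbtb16, which encodes a zinc finger transcription factor induced by glucocorticoids, held 4 Ethanol-only regions on chromosome 8. The one from 53078319 to 53081703 had peaks of 2255 bp in Ethanol 2, 2983 bp in Ethanol 4 and 2612 bp in Ethanol 6. The one from 53091621 to 53092731 had peaks of 649 to 1024 bp in all but Ethanol 1. The other 2 were each listed in Ethanol 2, Ethanol 4 and Ethanol 6. Percentiles over the 4 regions ran from 9.9 to 63.5. Ethanol 1, one of the longest lists, had no peak in any of the 4. The 1 Mb window that holds them, from 53 to 54 Mb, had 5 Ethanol-only regions of 37, or 13.5%. Over all regions listed in 3 or more libraries the share was 2.17%. No share was counted for a gene body alone, so the number of Ethanol-only regions in a gene has none beside it. Fkbp5, a chaperone of the glucocorticoid receptor, held 1 Ethanol-only region on chromosome 20 from 7976837 to 7980538. Its peaks covered 922 bp in Ethanol 2, 408 bp in Ethanol 4 and 3702 bp in Ethanol 6. At most 2 of them shared a base, and their percentiles ran from 9.9 to 49.4.

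Gria1 and Grik4 are the last of the genes picked after their values were seen. Within Gria1, a subunit of AMPA receptors, the region on chromosome 10 from 42559042 to 42561133 had peaks of 957 bp in Ethanol 1, 1423 bp in Ethanol 2, 2092 bp in Ethanol 4 and 1327 bp in Ethanol 6. Within Grik4, a subunit of kainate receptors, the region on chromosome 8 from 47141883 to 47144636 had peaks of 695 bp in Ethanol 1, 611 bp in Ethanol 3, 1113 bp in Ethanol 4 and 2693 bp in Ethanol 6. Ethanol 5, the shortest list, had no peak in either. Percentiles ran from 26.8 to 47.4 at Gria1 and from 10.2 to 42.7 at Grik4. The nearest Control peak was 0.899 kb from the region in Gria1 and 6.44 kb from that in Grik4.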

How the data were processed

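Per the labels, frozen amygdala was tagmented with a Nextera kit and sequenced as paired ends. The submitters' processing notes name the build Rnor_6.0 and BWA, MACS2 2.1.1, bedtools 2.27.1, featureCounts 1.5.0 and edgeR. Settings, treatment of duplicates and any shift of reads for Tn5 are not given in the sources used here. The authors deposited 1 peak list per library, with a score whose meaning was not stated. Here the score served to order the peaks of a list, with mid-ranks for ties. Lists of deeper libraries can be longer, and depth is unknown.

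Peaks were merged at 1 bp of overlap, and positions are given counted from 1. Ethanol-only regions (3 or more Ethanol, 0 Control libraries) were compared with Control-only regions and with regions of both treatments listed in as many libraries. No p-value was computed, since the rule uses the contrast between the treatments. The regions and comparisons were chosen with earlier results of these data known.

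Named were regions listed in 6 of 6 Ethanol libraries, the 3 with the greatest mean covered length, the 3 with the highest mean percentile, the most often listed region in each of the 1 Mb windows with most members (ties included), and those at promoter loci of the study. Gene names are the study's for the same positions. Scripts used Python 3.11.15 and pandas 2.3.3, and were tested on simulated lists and against bedtools.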

Additional observations from a re-analysis of the deposited data

Results flagged for a closer look

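The median percentile of peaks in one-treatment regions stood apart from the other values in 2 of 16 groups of 6 values examined, by the ratio of gap to range, and chance gives about 1 in 20 groups. For Ethanol-only regions it was 23.0 in Ethanol 6, against 26.0 to 27.6 in the other 5 Ethanol libraries. For Control-only regions it was 18.5 in Control 1, against 25.1 or more in the other 5 Control libraries. The score takes few values at its low end, so a median over peaks there moves in steps: in Ethanol 6 the lowest score values correspond to percentiles of 8.37, 23.0 and 34.1. Over regions of both treatments listed in 3 to 6 libraries, the median percentile was 34.1 in Ethanol 6 and 26.9 in Control 1.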

How the results depend on the processing

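No paired analysis was possible because the results come from no test, and the shared replicate numbers name animals of different treatments. Cut to 50370 peaks each, the lists gave 905 Ethanol-only regions with ties broken at random and 846 with the wider peak first, median widths of 1287 and 1374 bp, a median percentile of 38.8 in both, and with random ties a median distance to regions in all 12 libraries of 23.9 kb. The higher scoring 50% of each list gave 652 Ethanol-only and 258 Control-only regions, with 1588 bp, a percentile of 59.5 and 38.1 kb. Counting a library only where it covered 50% of a region gave 1538 bp, 37.6 and 96.9 kb. Merging peaks up to 200 bp apart gave 23.0 kb. A minimum of 2 libraries gave 5346 and 3041 regions and 1006 bp, and a minimum of 4 gave 333 and 133 and 1443 bp. Bases in place of regions gave 16704 and 8001 stretches. Chosen after seeing the data, leaving out the longest list of each group gave 1251 bp and 17.1 kb, leaving out the shortest gave 1248 bp, and leaving out 29 to 33 Mb of chromosome 15 gave 1324 and 595 regions. The Ethanol-only count was the larger in each of these. Leaving out 1 library gave 592 to 2315 Ethanol-only and 246 to 1183 Control-only regions, and Control-only regions were then the more numerous without Ethanol 6, Ethanol 4 or Ethanol 1, at ratios of 0.5, 0.856 and 0.908. Unequal group sizes act on these counts by construction. The median width was then 1222 to 1292 bp, the percentile 26.7 to 26.8 and the distance 19.1 to 22.2 kb. The lists hold no read counts, so how depth bears on a missing peak was not tested.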
